A study of Homo sapiens with 2 samples.

Results

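Gap junction genes were followed through the lineages of blood-generating heart-forming organoids (BG-HFOs). The set comprised 8 connexin genes, *GJA1*, *GJA3*, *GJA4*, *GJA5*, *GJB1*, *GJB2*, *GJC1* and *GJD3*, which were taken by symbol from the 36601 features counted in each library, and the feature table held 21 connexin genes in all. BG-HFOs were grown from the human embryonic stem cell line hES3 NKX2.5-eGFP, in which green fluorescent protein reports the cardiac gene *NKX2.5*. Aggregates were embedded in Matrigel, taken through biphasic WNT modulation and given haemato-endothelial growth factors. On day 14, 2 organoids (32.7 and 33.10) were dissociated separately, and each gave 1 single-cell 3′ library. Both organoids received the same treatment and come from 1 line, so the only comparisons possible were between cell classes within them.

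Connexins are membrane proteins that assemble into hexameric channels. Channels of neighbouring cells dock to form gap junctions, which let ions and small molecules pass directly from cell to cell. In the heart these junctions carry the action potential between cardiomyocytes (CMs), and in vessels they couple endothelial cells (ECs) along the wall. Which family members a cell makes differs between lineages. *GJA1* is the most widely used member, *GJA4* and *GJA5* are known from arterial endothelium, and *GJC1* is known from the early heart tube and the conduction system. *GJB1* is the main hepatocyte connexin, and *GJA3* is best known from the lens.

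On GRCh38, *GJA1* spans chr6:121435595-121449727 (plus strand), *GJA4* chr1:34792999-34795747 (plus), *GJA5* chr1:147756199-147773362 (minus) and *GJA3* chr13:20138255-20161052 (minus). *GJC1* spans chr17:44798448-44830816 (minus), *GJB1* chrX:71212811-71225516 (plus), *GJB2* chr13:20187463-20192938 (minus) and *GJD3* chr17:40360652-40364737 (minus). The canonical transcript has 2 exons in 6 of the genes, 3 in *GJC1* and 1 in *GJD3*. *GJA5* overlaps AC241644.3 and *GJD3* overlaps *GJD3-AS1* on the opposite strand in both cases. RefSeq promoter windows matched 5 of the 8 genes, and the 250 bases before a RefSeq start site are shown for 4 genes because these peaked in 3 different cell classes, *GJA1* and *GJA5* in the endothelial, *GJA3* in the CM and *GJB1* in the endodermal class. The RefSeq start of *GJA3* is the end of the span given above, whereas those of *GJA1*, *GJA5* and *GJB1* lie inside their spans, and of 2 windows for *GJA5* the one farther upstream is shown. Each reads 5′ to 3′ along the gene, on GRCh38.p14, and capitals mark the motifs described after them.
GJA1, chr6:121435396-121435645, plus strand: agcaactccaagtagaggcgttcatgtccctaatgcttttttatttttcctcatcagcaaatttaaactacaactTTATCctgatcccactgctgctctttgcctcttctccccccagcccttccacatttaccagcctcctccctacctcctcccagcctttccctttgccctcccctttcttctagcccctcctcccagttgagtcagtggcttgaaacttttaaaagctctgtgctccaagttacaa
GJA5, chr1:147773352-147773601, minus strand: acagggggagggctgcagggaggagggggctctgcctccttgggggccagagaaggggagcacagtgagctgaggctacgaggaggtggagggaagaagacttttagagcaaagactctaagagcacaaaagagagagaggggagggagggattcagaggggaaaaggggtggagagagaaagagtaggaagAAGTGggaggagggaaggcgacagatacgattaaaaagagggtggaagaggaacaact
GJA3, chr13:20161053-20161302, minus strand: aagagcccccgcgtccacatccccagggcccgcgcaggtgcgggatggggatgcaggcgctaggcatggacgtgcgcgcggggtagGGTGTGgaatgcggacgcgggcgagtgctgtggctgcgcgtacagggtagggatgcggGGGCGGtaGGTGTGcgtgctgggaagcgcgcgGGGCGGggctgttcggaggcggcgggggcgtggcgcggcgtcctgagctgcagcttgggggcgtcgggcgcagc
GJB1, chrX:71214989-71215238, plus strand: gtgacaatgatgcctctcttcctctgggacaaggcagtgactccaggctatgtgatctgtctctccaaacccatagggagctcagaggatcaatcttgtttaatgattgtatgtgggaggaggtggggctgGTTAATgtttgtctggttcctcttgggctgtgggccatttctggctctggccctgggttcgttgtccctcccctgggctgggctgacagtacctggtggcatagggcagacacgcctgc

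The windows were searched on both strands for 6 short letter strings, and no matches overlapped. The strings were GATAA (known from GATA factors), GGTGTG (T-box factors), AAGTG (NKX2 factors), CCGGAA (ETS factors), GGGCGG (SP1) and GTTAAT (the HNF1 half-site). The *GJA3* window held GGTGTG at bases 87 and 153 and GGGCGG at bases 145 and 177, in a sequence of 74.8% GC. The *GJB1* window held GTTAAT at base 132, a string found in 6.23% of 35116 promoter windows of the same length. GGTGTG occurred in 14.2% of those windows and GGGCGG in 42.6%. The *GJA1* window held GATAA on the reverse strand at base 76 (20.4% of windows), and the *GJA5* window held AAGTG at base 193 (37.6%). CCGGAA, present in 14.5% of windows, was in none of the 4. A match of so few letters describes the window and shows no binding.

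Lineages were gated on raw counts of unique molecular identifiers (UMIs) of 7 genes. A cell was positive with at least 50 UMIs of *HBZ* (erythroid), 10 of *PF4* (megakaryocyte), 2 of *PTPRC* (leukocyte), 2 of *CDH5* (endothelial), 5 of *MYH6* (CM), 20 of *COL3A1* (mesenchymal, MES) or 10 of *AFP* (endodermal), and a gate held the cells positive for exactly 1 gene. After the cell filter 16792 and 19893 cells remained (median 7842 and 8284.5 UMIs per barcode before the filter), and 100 barcodes occurred in both libraries. The CDH5 gate held 2283 and 2173 cells of organoids 32.7 and 33.10, the MYH6 gate 1466 and 1523, the COL3A1 gate 1519 and 1050, and the PF4 gate 1175 and 3220. The AFP gate held 168 cells in organoid 32.7 and 13 in organoid 33.10, so its values in the second organoid rest on few UMIs. In both organoids, all 38 lineage markers were highest in their own gate. No gate took 42.5% and 40.2% of the cells. UMIs were summed per gate and organoid and scaled to the total of the class as CPM, with n = 2 organoids throughout. Because free RNA had not been removed from the counts, the HBZ gate, whose erythroid cells should lack connexins, served as a reference level. It is no floor, since *GJA1* was lower in the PTPRC gate (11.2 and 8.53 CPM) than in the HBZ gate (16.7 and 15.9 CPM). How much free RNA each gate held was not tested.

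The vascular connexins were highest in the CDH5 gate. *GJA1* reached 421 CPM in organoid 32.7 and 382 CPM in organoid 33.10 there. It followed at 128 and 83.0 CPM in the COL3A1 gate, 90.2 and 86.3 CPM in the AFP gate and 47.0 and 35.7 CPM in the MYH6 gate. The order of neighbouring gates was the same in both organoids except between the COL3A1 and AFP gates, whose ranges overlapped. The blood gates lay lowest, with 24.2 and 23.9 CPM in the PF4 gate, 16.7 and 15.9 CPM in the HBZ gate and 11.2 and 8.53 CPM in the PTPRC gate.

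**Figure D1:**
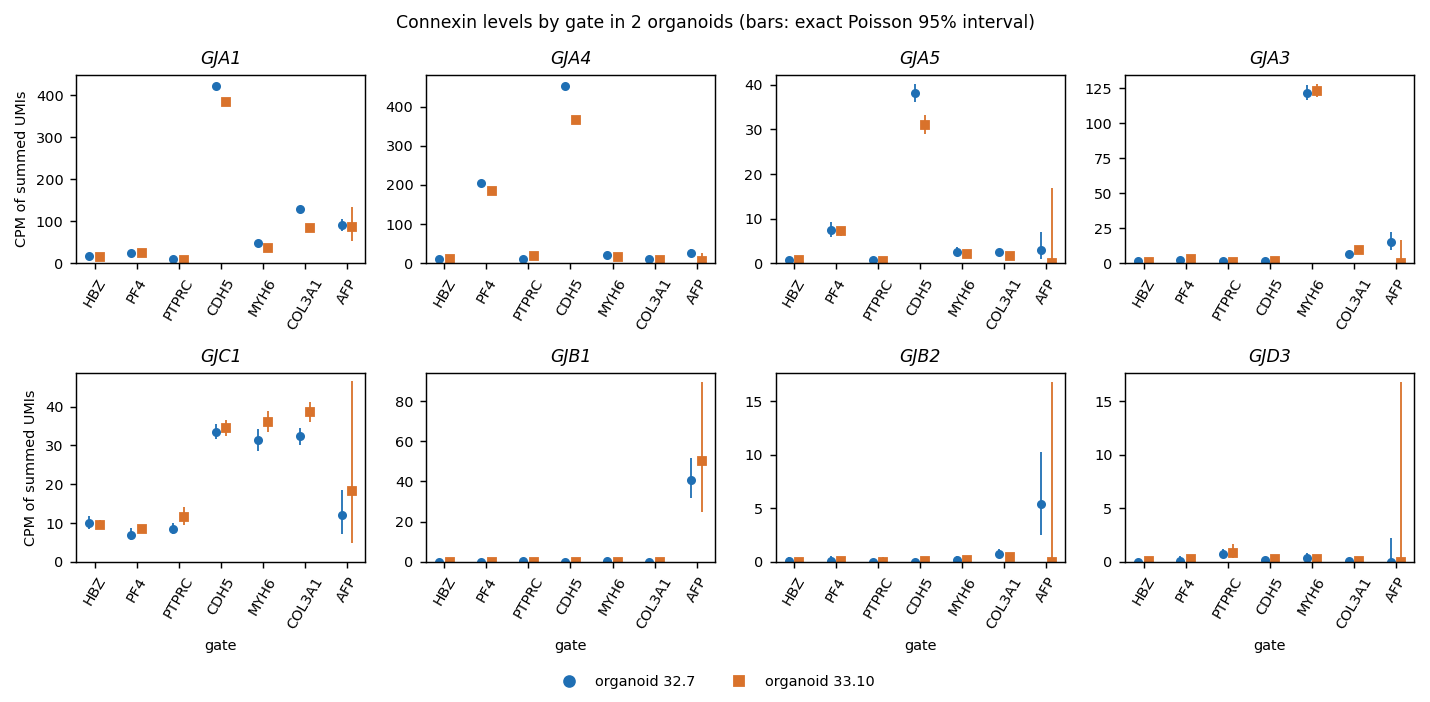
CPM of summed UMIs (vertical axis, linear, a separate scale per gene) of the 8 connexins in the 7 gates (horizontal axis), with a point for each organoid and bars for the exact Poisson 95% interval. *GJA1*, *GJA4* and *GJA5* peak in the CDH5 gate, *GJA3* in the MYH6 gate at 122 and 123 CPM and *GJB1* in the AFP gate at 40.6 and 49.99 CPM, whereas *GJC1* is level across the CDH5, MYH6 and COL3A1 gates.

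*GJA4* stood at 452 and 366 CPM in the CDH5 gate. Its next level was in the PF4 gate, at 205 and 185 CPM, and the gates did not overlap. The share of all genes without overlap between these gates was not counted. Every other gate of both organoids lay between 4.54 and 26.9 CPM. *GJA5* was sparser and had the same leading pair of gates, at 38.1 and 31.1 CPM in the CDH5 gate and 7.41 and 7.12 CPM in the PF4 gate, and it stayed below 3 CPM elsewhere.

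In the CDH5 gate against the MYH6 gate, 4 of the 8 members passed the test, where 55.3% of all genes did. *GJA1* was higher by 3.31 ± 0.23 (SE) on the log2 scale (quasi-likelihood test of edgeR, adjusted by the Benjamini-Hochberg method, adjusted p = 6.43e-08). The same edgeR test gave 4.59 ± 0.30 for *GJA4* (adjusted p = 4.16e-08) and 3.92 ± 0.26 for *GJA5* (adjusted p = 5.59e-08). The fourth was *GJA3*, which was lower by 6.31 on the log2 scale. A share of 4 in 8 was close to that of all genes, so the count alone says nothing about connexins.

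Against the COL3A1 gate 5 of the 8 members passed (47% of all genes). *GJA1* was higher in the CDH5 gate by 1.96 ± 0.21, *GJA4* by 5.65 ± 0.32 and *GJA5* by 4.06 ± 0.26 on the log2 scale, with adjusted p of 6.25e-06, 1.90e-08 and 5.65e-08 (edgeR). *GJA3* and *GJB2* were the ones that were lower. Against the PTPRC gate, 5 of the 8 passed (49.8% of all genes), and the 4 that were higher were *GJA1* (5.10 ± 0.26), *GJA4* (4.75 ± 0.31), *GJA5* (5.48 ± 0.33) and *GJC1* (1.56 ± 0.15), with edgeR adjusted p of 1.79e-06 or less.

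The CDH5 gate also led in single cells at equal depth. With every cell thinned to 3000 UMIs and shallower cells left out, 58.1% and 57.1% of CDH5-gate cells had a *GJA1* UMI, against 6.86% and 4.37% in the HBZ gate. Without thinning the shares were 80.1% and 79.6% against 16.4% and 10.8%. *GJA4* UMIs were found in 57.6% and 51.2% of thinned CDH5-gate cells and in 37.7% and 35.8% of PF4-gate cells, with 3.32% and 3.10% in the HBZ gate. For *GJA1* the PF4 gate (8.28% and 6.13%) lay near the HBZ gate and the PTPRC gate (3.80% and 2.33%) below it. Thinning left out 63 and 72 CDH5-gate cells, 296 and 582 PF4-gate cells and 98 and 131 HBZ-gate cells.

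**Figure D2:**
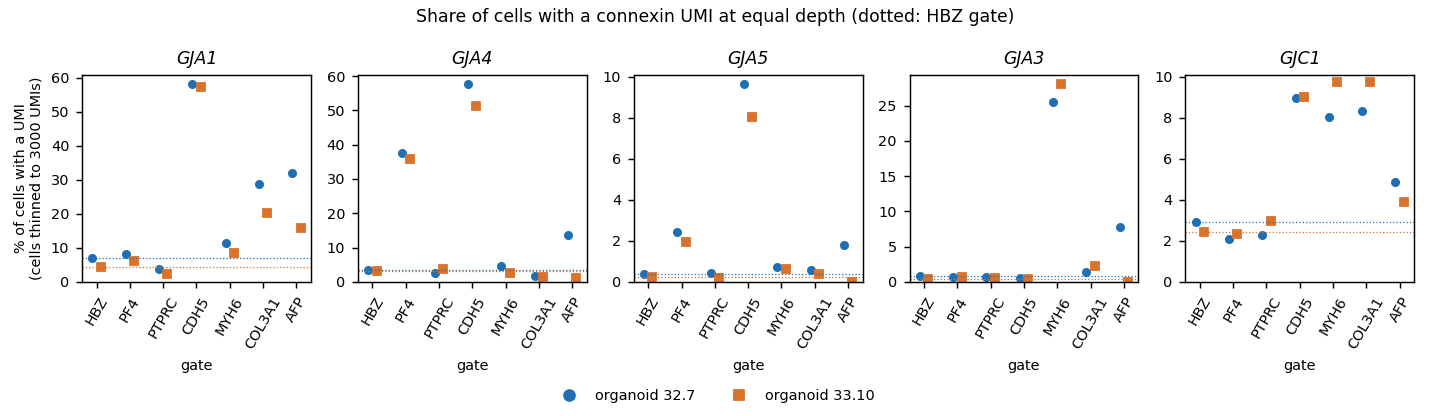
Percentage of cells with at least 1 UMI (vertical axis) of *GJA1*, *GJA4*, *GJA5*, *GJA3* and *GJC1* by gate (horizontal axis) after thinning every cell to 3000 UMIs, with a point for each organoid and dotted lines at the HBZ gate. *GJA4* stands clear of the lines in the CDH5 and PF4 gates, and *GJA3* in the MYH6 gate at 25.5% and 28.0%.

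Within the endothelium the same 3 genes divided cells with the arterial marker *CXCR4* from those with the venous marker *NR2F2*. The CXCR4 subgate (1219 and 1096 cells) had at least 1 *CXCR4* UMI and none of *NR2F2*, and the NR2F2 subgate (499 and 500 cells) the reverse. Cells of the CXCR4 subgate were also deeper, with a median of 14315 and 12343 UMIs against 12066 and 10906.5. The part of depth in these values was not tested. *GJA1* was at 575 and 532 CPM in the CXCR4 subgate and at 101 and 102 CPM in the NR2F2 subgate. *GJA4* was at 547 and 494 CPM against 216 and 146 CPM. *GJA5* was at 42.5 and 38.9 CPM against 20.6 and 18.6 CPM. None of the 3 genes overlapped between subgates, but neither did *GJC1*, which did not pass. The share of all genes without overlap was not counted. Of the 6 members tested, 3 passed (19.4% of all genes).

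The differences were 2.60 ± 0.24 for *GJA1*, 1.67 ± 0.27 for *GJA4* and 1.21 ± 0.23 for *GJA5* on the log2 scale, with edgeR adjusted p of 1.58e-06, 0.00031 and 0.0014. With 10% of each sum removed as free RNA, *GJA4* kept its size (1.73) and no longer passed (edgeR adjusted p = 0.0762). *GJA4* is also one of the genes by which the study named arterial cells on these libraries, so its direction here is not independent evidence. *GJC1* did not pass, at 32.7 and 32.0 CPM in the CXCR4 subgate against 38.4 and 41.5 CPM in the NR2F2 subgate (edgeR adjusted p = 0.503).

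Other divisions of the CDH5 gate were chosen after the values had been seen and carry no test. In cells with at least 2 UMIs of the mitotic gene *TOP2A* (107 and 135 cells), *GJA1* was at 217 and 188 CPM, compared with 443 and 414 CPM in cells with none. *GJA4* was at 230 and 169 CPM against 481 and 396 CPM. *GJC1* ran the other way, at 46.1 and 49.8 CPM against 32.5 and 31.6 CPM. Cells with a UMI of *RUNX1*, a gene of haemogenic endothelium, had *GJA4* at 358 and 331 CPM and those without at 463 and 371 CPM, and *GJA1* at 372 and 323 CPM against 427 and 392 CPM. For each gene and division named, the classes did not overlap, narrowly so for *GJA4* by *RUNX1* (358 beside 371 CPM). How many of all genes did not overlap was not counted. The *TOP2A* cells were also deeper, with a median of 21942 and 19694 UMIs against 12917 and 10956, and the part of depth in these values was not tested.

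**Figure D3:**
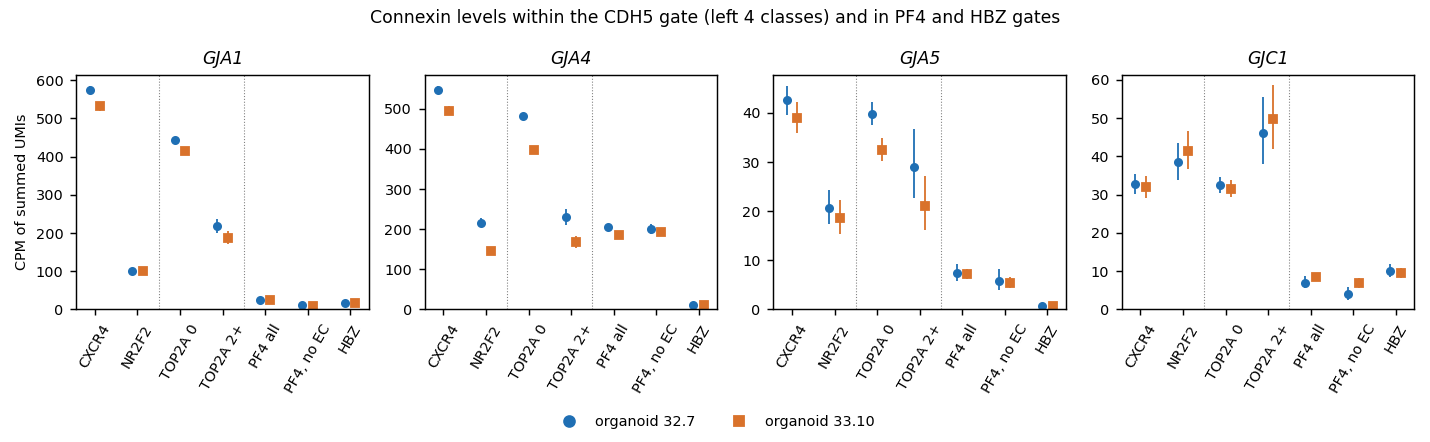
CPM of summed UMIs (vertical axis, a separate scale per gene) of *GJA1*, *GJA4*, *GJA5* and *GJC1* in classes of the CDH5 gate (CXCR4 and NR2F2 subgates, cells with 0 and with at least 2 *TOP2A* UMIs), the PF4 gate with and without cells that held endothelial UMIs, and the HBZ gate, with points for organoids and bars for the exact Poisson 95% interval. *GJA4* stays at 200.04 and 192 CPM in the PF4 gate without endothelial UMIs, while *GJA1* is at 10.7 and 9.12 CPM there.

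In single cells of the CDH5 gate, *GJA4* UMIs were more frequent in cells that held *GJA1* than in those that did not. Of cells thinned once to 3000 UMIs, those with a *GJA1* UMI held a *GJA4* UMI in 64.4% and 59.9% of cases, and those without in 47.4% and 39.7%. *GJA4* cells held *GJA5* in 12.7% and 9.94% of cases, against 5.38% and 5.07% of the rest. Cells with *GJC1* held *GJA4* in 55.0% and 42.4% of cases and cells without it in 57.5% and 52.1%. Of *GJA1*, *GJA4* and *GJA5*, with *GJC1* not counted, none was detected in 20.9% and 24.6% of cells and exactly 1 in 38.0% and 38.7%. Of the same genes, 2 were detected in 36.3% and 33.1% of cells and 3 in 4.82% and 3.62%. These shares are descriptions, since cells of an organoid are not replicates.

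*GJA4* was the connexin of the megakaryocyte gate. In the PF4 gate against the HBZ gate it was higher by 3.89 ± 0.30 on the log2 scale (edgeR adjusted p = 3.15e-07), as was *GJA5* by 3.09 ± 0.32 (edgeR adjusted p = 5.61e-06). *GJA1* did not pass (0.31 ± 0.22, edgeR adjusted p = 0.287), but did so with 10% of each sum removed as free RNA (1.27, adjusted p = 0.0196). *GJC1* was lower by 0.58 on the log2 scale (edgeR adjusted p = 0.00965), at 7.04 and 8.41 CPM against 10.1 and 9.55 CPM, a call lost with all barcodes kept (adjusted p = 0.0754) and with depth-scaled thresholds (0.0537). Keeping all barcodes took the PF4 gate of organoid 32.7 from 1175 to 1176 cells and its HBZ gate from 807 to 808. In organoid 33.10 both gates were unchanged. The AFP gate of organoid 33.10, which enters the same fit, went from 220046 to 316309 UMIs. What moved the call was not tested. In all, 4 of the 8 members passed, beside 43.2% of all genes, the other being *GJD3* on few UMIs.

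Endothelial markers were also present in the PF4 gate. The 6 of the endothelial list summed to 856 and 846 CPM there, to 3731 and 3395 CPM in the CDH5 gate and to 182 and 177 CPM in the HBZ gate. The list was uneven in the PF4 gate, with *EGFL7* at 320 and 299 CPM, *PECAM1* at 225 and 227 CPM and *ESAM* at 183 and 173 CPM. There *KDR* was at 101 and 122 CPM, *TIE1* at 19.3 and 16.6 CPM and *ERG* at 7.41 and 8.97 CPM. *ERG* was at 4.61 and 4.46 CPM in the HBZ gate and at 176 and 182 CPM in the CDH5 gate. When cells with any UMI of *CDH5*, *KDR* or *TIE1* were left out, a step added after seeing the data, 723 and 1851 PF4-gate cells remained. *GJA4* stayed at 200.04 and 192 CPM in them, whereas *GJA1* was at 10.7 and 9.12 CPM and *GJA5* was at 5.87 and 5.38 CPM. By level of *PF4* itself, *GJA4* was at 183 and 147 CPM in the lowest of 3 bins of nearly equal size and at 217 and 240 CPM in the highest, while *GJA1* was at 40.1 and 35.5 CPM in the lowest and 12.1 and 12.6 CPM in the highest.

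**Figure D4:**
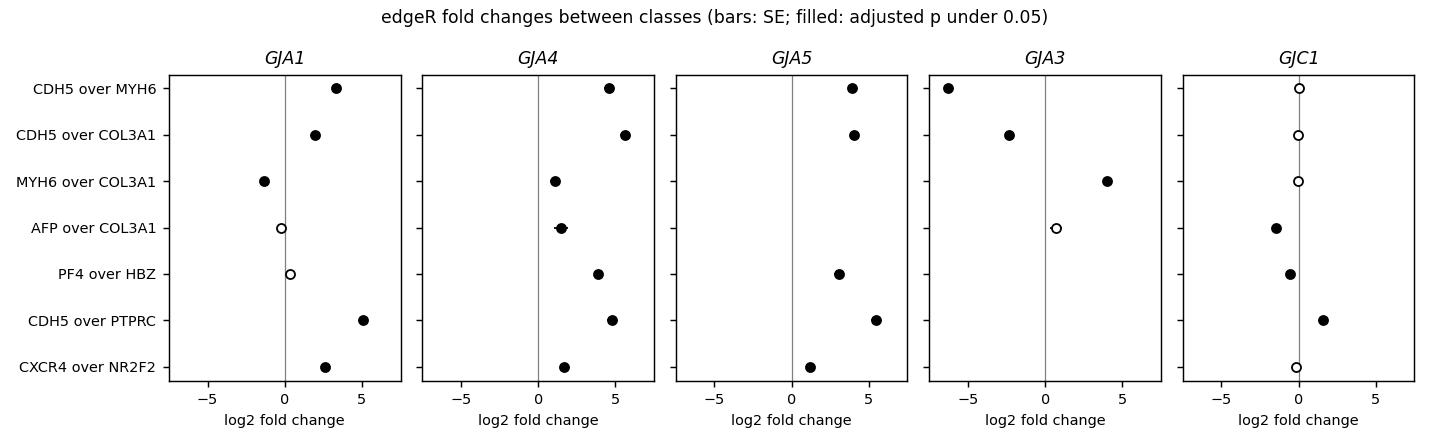
Log2 fold changes (horizontal axis) of *GJA1*, *GJA4*, *GJA5*, *GJA3* and *GJC1* in the 6 gate comparisons and between the CXCR4 and NR2F2 subgates (vertical axis), with bars for the SE and filled points where the edgeR adjusted p was under 0.05. Folds with under 100 UMIs in each class that did not pass are left out. *GJA4* lies at 3.89 for the PF4 gate over the HBZ gate, where *GJA1* lies at 0.31 and is open.

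In CMs the leading connexin was *GJA3*. It was at 122 and 123 CPM in the MYH6 gate, and outside it at 6.45 and 9.40 CPM in the COL3A1 gate and at 14.9 CPM in the AFP gate of organoid 32.7, where 25 UMIs were counted. The AFP gate of organoid 33.10 held no *GJA3* UMI, and 3 UMIs there would be 13.6 CPM. The blood gates and the CDH5 gate lay between 1.07 and 2.65 CPM. The CDH5 gate was lower than the MYH6 gate by 6.31 on the log2 scale (SE 0.27, edgeR adjusted p = 1.82e-09), and the MYH6 gate was higher than the COL3A1 gate by 3.98 ± 0.23 (edgeR adjusted p = 5.85e-08).

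*GJA3* was lower in COL3A1-gate cells without CM transcripts than in the whole gate (6.45 and 9.40 CPM). In COL3A1-gate cells without a UMI of *MYH6*, *TNNT2* or *ACTC1* (526 and 293 cells, chosen after seeing the data) it was at 0.56 and 2.23 CPM, on few UMIs. A relation of *GJA3* to the amount of CM transcripts was not tested. The difference of the CDH5 gate from the COL3A1 gate (lower by 2.33 on the log2 scale, edgeR adjusted p = 8.55e-06) was lost when gate thresholds were scaled to each cell's depth (-0.04, adjusted p = 0.946). *GJA3* in the MYH6 gate itself stayed at 111 and 118 CPM in the 629 and 634 cells that had no UMI of *CDH5*, *KDR* or *COL3A1*.

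*GJA1* was low in CMs. In the MYH6 gate it was lower than in the COL3A1 gate by 1.35 on the log2 scale (SE 0.21, edgeR adjusted p = 0.000271, lost when multiply positive cells were kept, at 0.0881). MYH6-gate cells without a UMI of *CDH5*, *KDR* or *COL3A1* had *GJA1* at 20.6 CPM in both organoids. The HBZ gate was at 16.7 and 15.9 CPM and the PTPRC gate at 11.2 and 8.53 CPM. *GJA4* went from 19.9 and 14.9 CPM in the whole MYH6 gate to 2.29 and 2.06 CPM in its cells without those UMIs. Over all cells of both gates it was higher in the MYH6 than in the COL3A1 gate (1.06 ± 0.28, edgeR adjusted p = 0.0102, lost with halved thresholds at 0.39). The COL3A1 gate was not cleared of endothelial UMIs, so no order of the 2 gates is given for cleared cells. In this comparison 4 of the 8 members passed (36.8% of all genes).

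*NPPA*, a natriuretic peptide gene of chamber myocardium, was used to divide the MYH6 gate. Cells with *NPPA* were also deeper, with a median of 9458.5 and 11715 UMIs against 6844.5 and 9055. The part of depth in these values was not tested. *GJA3* was at 128 and 131 CPM in MYH6-gate cells with *NPPA* and at 104 and 101 CPM in those without. The difference of 0.42 ± 0.22 on the log2 scale did not pass (edgeR adjusted p = 1, unadjusted p = 0.0779). The values were 0.19 ± 0.25 for *GJA1*, 0.24 ± 0.32 for *GJA4* and -0.12 ± 0.14 for *GJC1* (edgeR adjusted p = 1 for each). None of the 6 members tested passed, in a comparison in which 0.00955% of all genes did, namely 2 of 20944, with 1019 at an unadjusted p under 0.05 (62 genes with the organoid as a block and 36 with DESeq2). *GJA5*, an atrial connexin in the heart, was at 3.07 and 2.23 CPM with *NPPA* and 1.38 and 1.76 CPM without, on 6 to 34 UMIs.

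*GJC1* lay at similar levels in the CDH5, MYH6 and COL3A1 gates. It was at 33.5 and 34.5 CPM in the CDH5 gate, 31.3 and 36.0 CPM in the MYH6 gate and 32.3 and 38.5 CPM in the COL3A1 gate, with overlapping ranges. The differences were 0.04 ± 0.14 between the CDH5 and MYH6 gates, -0.01 ± 0.14 between the CDH5 and COL3A1 gates and -0.05 ± 0.14 between the MYH6 and COL3A1 gates on the log2 scale (edgeR adjusted p of 0.836, 0.967 and 0.818). A p of this size does not show equality. *GJC1* lay at 7.04 to 11.6 CPM in the blood gates, and the AFP gate was lower than the COL3A1 gate by 1.45 on the log2 scale (edgeR adjusted p = 0.00105, lost with all barcodes kept at 0.0892), on 20 and 4 UMIs. At 3000 UMIs per cell, 8.04% to 9.73% of cells of the CDH5, MYH6 and COL3A1 gates had a *GJC1* UMI. In HBZ-gate cells the share was 2.42% to 2.91%.

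Among the gates, *GJB1* was counted almost only in the endodermal one. The whole libraries held 139 and 22 of its UMIs. Cells in no gate held few of those outside the gates (0.0537 and 0.0385 CPM), and most came from cells positive for several gate genes. Which gate genes those cells passed was not counted, so the concentration in the AFP gate holds among the gates only. The AFP gate held 68 UMIs in organoid 32.7 (40.6 CPM) and 11 in organoid 33.10 (49.99 CPM). Every other gate held 0 to 3 UMIs, with 0 in the PF4 gate of both organoids, where 3 UMIs would be 0.274 and 0.0994 CPM. The COL3A1 gate held 1 UMI in each, so that the AFP gate exceeded it 1089-fold (95% counting interval from 189-fold) and 1042-fold (from 151-fold). The edgeR adjusted p was 2.03e-06. Of the AFP-gate cells, 38 of 168 and 6 of 13 had a *GJB1* UMI.

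*GJB2*, an epithelial connexin, was rare everywhere. The COL3A1 gate held 20 and 9 UMIs, the AFP gate 9 and 0, the MYH6 gate 3 and 3, and the CDH5 gate 1 and 1. The COL3A1 gate exceeded the CDH5 gate 24.9-fold (95% counting interval 3.99 to 1033) and 12.5-fold (1.74 to 549), with edgeR adjusted p = 0.00152. *GJB2* in the AFP gate passed against the COL3A1 gate (edgeR adjusted p = 0.017) on organoid 32.7 alone, since organoid 33.10 held none, where 3 UMIs would be 13.6 CPM. The call was lost with doubled thresholds (adjusted p = 0.116) and with halved thresholds (0.355). Against the COL3A1 gate the AFP gate had 4 of 8 members past the test (20.3% of all genes), and *GJA4* was the other one whose organoids parted, at 26.9 and 4.54 CPM against 9.59 and 7.15 CPM (edgeR adjusted p = 0.0316, lost under 4 alternatives).

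Lower *GJB2* in the MYH6 gate than in the COL3A1 gate did not pass (edgeR adjusted p = 0.0656) and did with the organoid as a block (adjusted p = 0.0479). *GJD3* was rare as well, with 45 and 64 UMIs in the whole libraries, beside 64 and 24 of *GJB2*. It stood at 12 and 7 UMIs in the PTPRC gate, 7 and 7 in the CDH5 gate and 6 and 5 in the MYH6 gate. The PTPRC gate exceeded the CDH5 gate 3.33-fold (95% counting interval 1.21 to 10.0) and 3.44-fold (1.03 to 11.5), with edgeR adjusted p = 0.00843, a call lost with DESeq2 (adjusted p = 0.0565). The MYH6 gate exceeded the COL3A1 gate 5.22-fold (0.933 to 52.9) and 5.36-fold (0.599 to 253), intervals that include 1, although the edgeR adjusted p was 0.0341, a call lost under 6 alternatives. The PF4 gate held 1 and 9 *GJD3* UMIs and the HBZ gate 0 and 1 (edgeR adjusted p = 0.0492, 0.0606 with the organoid as a block, lost under 7 alternatives and of opposite sign under 1 more).

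The mesenchymal cells were divided by epicardial genes. The epicardial subgate held COL3A1-gate cells with at least 2 UMIs over *WT1*, *TBX18*, *TCF21* and *UPK3B* (824 and 693 cells), and the rest were 695 and 357 cells. Epicardial cells were also deeper, with a median of 17708.5 and 19080 UMIs against 13458 and 14723. The part of depth in these values was not tested. *GJA1* was at 107 and 68.9 CPM in the epicardial subgate and at 162 and 120 CPM in the rest. The classes did not overlap for *GJA1*, nor did they for *GJC1*, and the share of all genes without overlap was not counted. The *GJA1* difference of -0.74 ± 0.23 on the log2 scale did not pass (edgeR adjusted p = 0.262). With the organoid as a block it did (-0.75, adjusted p = 0.00495), where 454 genes were called in place of 49. The values were -0.05 ± 0.29 for *GJA3*, -0.35 ± 0.34 for *GJA4* and 0.14 ± 0.14 for *GJC1* (edgeR adjusted p of 0.993, 0.825 and 0.827). None of the 6 members tested passed in the main comparison (0.234% of all genes, 49 of 20944, with 1830 at an unadjusted p under 0.05).

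Cells outside the gates held connexins as well. The 7135 and 8001 cells in no gate were shallow, with a median of 3666 and 4918 UMIs, and had *GJA1* at 121 and 106 CPM, *GJA4* at 92.3 and 91.0 CPM, *GJA3* at 10.7 and 9.04 CPM and *GJC1* at 22.1 and 26.5 CPM. Cells positive for both *CDH5* and *MYH6* (162 and 106 cells) had *GJA1* at 270 and 206 CPM, *GJA4* at 276 and 219 CPM and *GJA3* at 59.1 and 50.3 CPM. Each value lay between those of the CDH5 and MYH6 gates. Cells positive for both *CDH5* and *HBZ* (42 and 100 cells) had *GJA4* at 198 and 168 CPM. Doublets were not called, and 2 cells under 1 barcode cannot be told apart from 1 cell with both programmes.

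The other 13 connexins of the feature table gave little signal. *GJB7* had 409 UMIs and *GJA9* 145 over the 7 gates of both organoids, the other 11 fewer than 100 each, and none exceeded 2.48 CPM outside the AFP gate. Of the 4 that entered the test, 1 was higher in the CDH5 than in the MYH6 gate (*GJC3*, 1.96, edgeR adjusted p = 0.0439), where 55.3% of all genes passed. Of the 3 pannexins, which form channels without docking, *PANX2* was lower in the CDH5 than in the MYH6 gate by 2.71 on the log2 scale (edgeR adjusted p = 0.0042) and *PANX3* was higher by 1.17 (adjusted p = 0.0142).

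Of 12 partners of the junction, 6 were higher and 4 lower in the CDH5 than in the MYH6 gate, where 55.3% of all genes passed, with a median of 0.50 against 0.01 over all genes on the log2 scale. The list was led by *CAV1*, the caveolar scaffold (3.02, edgeR adjusted p = 6.19e-08), and by *PKP2*, a plaque protein of the intercalated disc (-5.31, edgeR adjusted p = 1.82e-09). Between the CXCR4 and NR2F2 subgates (19.4% of all genes) 7 were higher, led by the cadherin *CDH2* (1.34, edgeR adjusted p = 2.56e-05), and *CAV1* was lower by 1.10 on the log2 scale (adjusted p = 0.000894), the opposite sign to that of *GJA1*.

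Of 12 transcription and Notch genes known to act on connexin genes, 7 were higher and 5 lower in the CDH5 than in the MYH6 gate (55.3% of all genes passed), with a median of 1.18 against 0.01 over all genes on the log2 scale. *DLL4*, an arterial Notch ligand, led (4.77, edgeR adjusted p = 1.95e-09), and *IRX3*, a regulator in the conduction system, was the lowest (-5.39, edgeR adjusted p = 3.79e-10). In the CXCR4 subgate 6 were higher and 2 lower than in the NR2F2 subgate (19.4% of all genes), led by the Notch target *HEY2* (2.75, edgeR adjusted p = 1.26e-05) and by *TBX5* (-2.31, adjusted p = 8.89e-06). *DLL4* and *SOX17* were among the 6. The study named arterial cells on these libraries by both and by *CXCR4* itself, so their direction is not independent evidence. In the PF4 over the HBZ gate (43.2% of all genes) 6 of the 12 were higher and 1 lower, and between the *NPPA* classes none passed.

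Neither list was tested for enrichment, and the remaining comparisons are given as counts beside the share of all genes that passed. Against the COL3A1 gate (47% of all genes), the CDH5 gate had 7 partners higher and 4 lower (*CAV1* 1.40 and *PKP2* -2.87 on the log2 scale) and 5 regulators higher and 5 lower (*DLL4* 6.38 and *TBX2* -3.73). Between the MYH6 and COL3A1 gates (36.8% of all genes), 6 partners were higher and 3 lower (*PKP2* 2.44 and *CAV1* -1.62), with 4 regulators higher and 6 lower (*NKX2-5*, a cardiac factor, 3.89 and *HOPX* -1.96). In the PF4 over the HBZ gate (43.2%) 8 partners were higher, led by the kinase *SRC* (3.48), and 1 was lower (*EZR*, -1.93), and *IRX3* (3.34) and *HEY2* (-1.16) led the regulators. In the CDH5 over the PTPRC gate (49.8%) 9 partners were higher and 1 lower (*CAV1* 4.74 and *SRC* -0.56), with 10 regulators higher and 1 lower (*DLL4* 5.70 and *TBX18* -1.03). In the AFP over the COL3A1 gate (20.3%) 2 partners were higher and 4 lower (*SRC* -0.91 among the latter), with 1 regulator higher and 4 lower (*DLL4* 2.43 and *TBX2* -2.40). The AFP gate held only 15 *DLL4* and 12 *TBX2* UMIs over both organoids. Of the pannexins, *PANX2* was lower in the CDH5 than in the COL3A1 gate by 3.09 and than in the PTPRC gate by 2.09, *PANX1* lower in the MYH6 than in the COL3A1 gate by 1.17, and *PANX3* higher in the PF4 than in the HBZ gate (1.91).

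Genes most like each connexin over the 14 sums of gate and organoid were listed by Pearson's r of log2(CPM + 1) among 12914 genes. The 14 sums come from 2 libraries, so r is a description. *GJA1* was nearest to *CAV1* (0.98), *CDH10* and *TM4SF1* (both 0.98), *GJA4* to *MYCT1* (0.99), *ESAM* (0.98) and *VEPH1* (0.96), and *GJA5* to *XKR4* (0.97), AC097459.1 and *CPXM2* (both 0.96). *GJA3* was nearest to *ALPK2*, AC012574.1 and *ADCY5* (all 0.99). *GJB1* was nearest to *ITIH1* and *SULT1E1* (both 1.00). *GJC1* was nearest to *FBXL2*, *ZFP82* (both 0.97) and *ZNF254* (0.97).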

How the data were processed

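The data were 2 single-cell libraries of day 14 BG-HFOs, 1 per organoid. The deposited counts are whole UMIs per gene and barcode that the authors made with Cell Ranger 7.0.0 on GRCh38 (10x 3′ kit v3.1, intronic reads included), before their equalization of depth and removal of free RNA with SoupX. The libraries held 191152562 UMIs in 16866 barcodes and 233818881 in 19948. Cells with 50 to 11000 genes and under 30% mitochondrial UMIs were kept. Doublets were not called, but cells past several thresholds were left out of the gates.

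UMIs were summed per organoid and gate. 7 gates (14 sums) entered 1 fit and 6 subgates with 4 gates (20 sums) a second, with edgeR 4.0.16 (TMM, filterByExpr, quasi-likelihood test) in R 4.3.3, tested on simulated data. The simulation gave all classes the same profile apart from a set of raised genes, and drew the sums independently. It therefore does not cover classes that differ in many genes or sums that correlate within an organoid. DESeq2 1.42.0 was an alternative. Adjusted p-values (Benjamini-Hochberg, called under 0.05) cover all genes tested. All sums come from 2 organoids of 1 line, so p-values measure the spread between these organoids, and sums of 1 organoid are not independent. The organoid pairs the sums by design, but the main fits held no term for it, and the organoid block was an alternative. Deviations of gates from their means correlated within an organoid at 0.23 to 0.51, and at -0.00 to 0.07 with the AFP gate.

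Shares were given after thinning each cell to 3000 UMIs. Intervals (exact Poisson and exact binomial, 95%) and floors (3 UMIs) cover counting error only. A floor is the CPM of 3 UMIs in a class that held none, and it lies below the exact Poisson upper limit. Fold changes were printed or plotted for members with at least 100 UMIs in each organoid in 1 of both classes or past the test (44 of 66), and *GJB1*, *GJB2* and *GJD3* were given as UMIs, CPM or ratios of CPM instead. This limit was set after the values were seen, as were the classes by *TOP2A*, *RUNX1* and *PF4* level and the gates without other lineages' UMIs. The members and gene lists were chosen with earlier results of these data known. All 8 members were named, and from each list the called gene with the largest fold in each direction, except for a few genes that are not reported here. Promoter windows came from RefSeq, and all 6 found for the members equalled the genome sequence. Alternatives covered thresholds, cell filters, free RNA, normalization, the low-count filter, the tool, the organoid block and each organoid alone.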

Additional observations from a re-analysis of the deposited data

How the results depend on the processing

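Of the 29 connexin fold changes past the threshold, 18 kept their direction and call under every alternative that gave a test (11 for each, but 9 for *GJB2* in the CDH5 over the COL3A1 gate), and 11 lost the call under at least 1 of them. Levels taken as a mean over cells, or without other lineages' UMIs, moved by more than the SD of the organoids in 10 cases and by less in 12, and shares of cells at 6000 UMIs moved by more in all 18. Depth limits *GJB1*, *GJB2* and *GJD3*, and the small AFP gate limits every value in it. The AFP sums also enter both fits, so they share in the estimate of spread for every comparison. The counts of called genes moved by over 1.5 times in 3 of the 9 comparisons. The AFP gate over the COL3A1 gate had 2859 without cells over 30000 UMIs (4476 otherwise). The *NPPA* comparison (2 genes) had 238 without a low-count filter, 62 with the organoid as a replicate block, 36 with DESeq2, 11 with halved thresholds and 1 with doubled thresholds, with depth-scaled thresholds or with 10% free RNA removed. The epicardial comparison (49 genes) had 745, 454, 152, 80, 32, 5 and 13 in the same order, and 79 without cells over 30000 UMIs. The organoid block changed no connexin call other than those given with the results. RLE normalization shifted the median of all genes by -0.105 for the CDH5 over the MYH6 gate and by 0.110 for the AFP over the COL3A1 gate, and by less elsewhere.

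Signs turned mostly where folds were near 0 and did not pass. *GJC1* in the CDH5 over the MYH6 gate turned to -0.067 with RLE, -0.068 with DESeq2, -0.065 with free RNA removed, -0.0075 without deep cells and -0.048 with halved thresholds. In the CDH5 over the COL3A1 gate it turned to 0.021 with free RNA removed, 0.12 without deep cells, 0.0078 with multiply positive cells kept, 0.011 with doubled and 0.27 with depth-scaled thresholds. In the MYH6 over the COL3A1 gate it turned to 0.027 with RLE, 0.027 with DESeq2, 0.085 with free RNA removed, 0.13 without deep cells, 0.032 with halved and 0.23 with depth-scaled thresholds, and in the epicardial comparison to -0.081 with depth-scaled thresholds. *GJA1* turned to 0.056 (without deep cells) and 0.074 (halved) in the AFP over the COL3A1 gate and to -0.082 (halved) in the *NPPA* comparison, where *GJA4* turned to -0.52. In the epicardial comparison *GJA3* turned to 0.42 (doubled) and 0.017 (halved), and *GJA4* had no UMIs left once free RNA was removed. Of the folds past the threshold, *GJD3* in the PF4 over the HBZ gate turned to -0.20 with multiply positive cells kept. With 1 organoid left out, *GJA4* in the AFP over the COL3A1 gate ranged from -0.72 to 1.56 and *GJB2* from -5.87 to 2.91, the lower values without organoid 32.7, since the AFP gate of organoid 33.10 has 13 cells. The causes were not tested.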
